A study of Mus musculus with 8 samples.

Results

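The inhibitory and paired immunoreceptors of myeloid cells were followed here through bone marrow-derived dendritic cells (BMDCs) that carry or lack G-protein coupled receptor kinases (GRKs). They were 10 genes chosen from a list of names, Pirb, Lilrb4a, Lilr4b, Sirpa, Cd300a, Cd300lb, Cd300lf, Trem1, Btla and Havcr2, out of 47937 gene rows in the count tables. The choice was made with earlier results of these data known. Of the 10 genes, 8 were found as rows of their own. The IDs of Lilrb4a and Lilr4b in GENCODE M21 had no row in the tables, and the 2 genes were not analysed here. One row of the tables carries the ID that M21 names Gm49339, a gene that spans both of them on chromosome 10 (51480612 to 51496613, plus strand, GRCm38). The tables hold an older version of this ID, whose extent is not given in the sources used here, so its values are printed as a locus row and stand for neither member.

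BMDCs are the cells that grow from bone marrow in GM-CSF, a mixture of dendritic cells and macrophages. WT cells came from Cre-negative control mice, and 3xGrk-/- cells from Grk3-/- mice with Vav-iCre and the floxed alleles Grk2 fl/fl and Grk6 fl/fl, all adult and on a C57BL6/J background. In these mice Vav1-driven Cre acts from early haematopoietic precursors on, so that Grk2 and Grk6 were targeted in all blood lineages, whereas the Grk3-/- alleles were carried by every cell of the animal. Cells of both genotypes were cultured for 8 days with 20 ng/ml GM-CSF and were either left unstimulated or stimulated with LPS, a bacterial cell wall component, at 20 ng/ml for 24 h. There were 2 libraries in each of the 4 groups, and nothing in the labels says that they came from separate cultures, while the study's methods call the RNA extractions technical replicates, so every p measures only the spread between these libraries, which may be technical. With a biological coefficient of variation of 0.4 for every gene in place of that spread, Btla was the member still called without LPS, Cd300lf and Havcr2 were still called with LPS, and the interaction was called for no member.

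Inhibitory receptors of this kind carry tyrosine motifs (ITIMs) in their cytoplasmic tails, which recruit the phosphatases SHP-1, SHP-2 or SHIP-1 and dampen the response of the cell. Their activating partners often have almost the same outer part, but a short tail and a charged residue in the membrane that binds an adaptor such as DAP12 (Tyrobp) or the Fc receptor gamma chain (Fcer1g). On myeloid cells, the balance of such pairs sets thresholds for phagocytosis, cytokine release and the response to Toll-like receptors. Pirb, which binds MHC class I, Sirpa, the receptor for CD47, Cd300a and Cd300lf, which bind lipids exposed on dying cells, and Btla, whose ligand is HVEM, are ITIM-bearing receptors. Havcr2 (Tim-3) has a tyrosine-containing tail without an ITIM. Trem1 and Cd300lb signal through DAP12.

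The promoters of the members are shown because members of one family, or with one kind of tail, moved in different directions. RefSeq sequences on GRCm38.p6 were available for 7 of the 8 members with a row; none was used for Sirpa. Given are the 250 bases before the start site, 5′ to 3′ along the gene, for the members that changed most between the groups and for Pirb. The RefSeq start sites of Havcr2 and Trem1 were not found in a transcript of GENCODE M21, the annotation used for gene positions elsewhere. Capitals mark the 6 letters GAGGAA on either strand, a core that PU.1 and related ETS factors bind, and also the AP-1 motif TGANTCA in Havcr2 and the kappaB motif in Cd300lb.
Pirb, chr7:3720383-3720632, minus strand: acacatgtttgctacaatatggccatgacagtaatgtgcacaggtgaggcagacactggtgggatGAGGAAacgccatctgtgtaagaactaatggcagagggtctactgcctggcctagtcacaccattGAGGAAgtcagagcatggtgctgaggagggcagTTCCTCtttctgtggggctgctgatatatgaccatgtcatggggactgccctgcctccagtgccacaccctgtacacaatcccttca
Cd300lf, chr11:115133993-115134242, minus strand: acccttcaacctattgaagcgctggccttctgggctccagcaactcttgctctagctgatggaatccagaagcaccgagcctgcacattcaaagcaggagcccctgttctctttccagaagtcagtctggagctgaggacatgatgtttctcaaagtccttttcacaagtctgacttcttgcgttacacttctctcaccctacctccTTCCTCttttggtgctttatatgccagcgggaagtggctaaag
Btla, chr16:45224087-45224336, plus strand: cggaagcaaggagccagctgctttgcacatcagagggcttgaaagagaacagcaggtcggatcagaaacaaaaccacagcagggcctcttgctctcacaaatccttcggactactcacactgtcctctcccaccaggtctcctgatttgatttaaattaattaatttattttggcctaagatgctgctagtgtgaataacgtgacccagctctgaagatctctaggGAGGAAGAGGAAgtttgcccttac
Havcr2, chr11:46454681-46454930, plus strand: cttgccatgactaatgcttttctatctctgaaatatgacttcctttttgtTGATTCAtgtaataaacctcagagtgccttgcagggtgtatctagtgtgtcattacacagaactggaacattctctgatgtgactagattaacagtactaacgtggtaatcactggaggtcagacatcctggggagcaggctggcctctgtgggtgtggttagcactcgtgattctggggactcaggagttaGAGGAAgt
Cd300lb, chr11:114934372-114934621, minus strand: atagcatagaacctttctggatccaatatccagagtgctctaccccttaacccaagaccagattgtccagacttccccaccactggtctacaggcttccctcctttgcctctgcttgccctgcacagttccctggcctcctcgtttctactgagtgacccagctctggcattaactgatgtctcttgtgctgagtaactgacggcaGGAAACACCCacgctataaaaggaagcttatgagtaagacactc

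The PU.1 core occurred in the window of 6 of the 7 members with a row and a promoter sequence, all but Cd300lb, and in 23.3% of 32851 mouse promoters of the same length. It occurred 3 times in Pirb, and in Btla it stood in 2 copies without a gap, at 24 and 18 bases before the start site. It was found once each in Cd300a, Cd300lf, Havcr2 and Trem1. Of the other motifs searched on both strands, kappaB was found only in Cd300lb (1.41% of all promoters) and AP-1 only in Havcr2 (6.75%), and the C/EBP motif TTGCNNAA only in Cd300a (9.56%). The interferon-stimulated response element (2.98%) and the MiT/TFE motif TCACGTG (3.13%) were found in no member. Lilr4b, which has no row of its own, also had a promoter sequence, and none of these motifs, the PU.1 core included, was found in it. These are matches of letters, and binding was not measured.

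The libraries held between 4713305 and 6933358 reads on genes. Grk2 transcripts fell from 320.2 and 320.9 CPM (CPM are counts scaled to a common library size by TMM over the 8 libraries) in unstimulated WT to 151.2 and 146.2 CPM in unstimulated 3xGrk-/- libraries, and for Grk3 and Grk6 every 3xGrk-/- library also lay below both WT libraries of the same stimulation. Grk3 transcripts were still counted in 3xGrk-/- cells, at a mean of 265 CPM against 339.1 CPM in WT without LPS and 339 against 451.9 CPM with LPS, and a count for the gene does not show which part of the transcript was read. The libraries of LPS-stimulated 3xGrk-/- cells differed most from each other, with a chi-square per gene of 9.02 against 1.59 to 3.07 in the other groups. Replicate 2 of that group held 149727 counts of Gm42418, against 17470 to 41199 in the other libraries. With any 1 library left out, 6 members were called between the genotypes with LPS, as with all libraries. The label BMDC was matched by the defining DC transcript Zbtb46, with between 675 and 1054 counts in each library, and by the macrophage transcript Csf1r, with between 348 and 5187 counts. The B cell gene Cd79a and the T and NK cell genes Cd3e and Ncr1 had at most 2 counts in any library. Of the 6 T and NK cell markers Cd8a was the one tested, with 16 to 21 counts in each WT and 1 to 5 counts in each 3xGrk-/- library, and it was called lower in both stimulations (log2 fold change −2.22 without and −3.94 with LPS). Markers of several cell types moved with the genotype. The summed level of 13 macrophage and monocyte markers was 2510 to 2520 CPM in unstimulated WT and 8780 to 8810 CPM in unstimulated 3xGrk-/- cells, and 798 to 826 CPM against 7470 to 7580 CPM with LPS. Of these 13 markers, 8 were called higher and 4 lower without LPS, and 12 higher and 0 lower with LPS. The rise of their sum rests largely on Lyz2, with a mean of 1330 CPM in WT and 7080 CPM in 3xGrk-/- cells without LPS and 286.4 against 4586 CPM with LPS. The sum of 13 DC markers was 7170 to 7220 CPM against 4460 to 4510 CPM without LPS, and 6450 to 6800 CPM against 5200 to 5320 CPM with LPS. Of the 12 tested without LPS, 4 were called higher and 7 lower, and of the 10 tested with LPS, 2 were higher and 8 lower. H2-Ab1 went from 3526 to 1105 CPM without LPS and from 1569 to 1176 CPM with LPS, and Ccr7 from 1224 to 1450 CPM and from 3780 to 3034 CPM, while Itgax was higher in 3xGrk-/- cells in both, with 1083 against 946.8 CPM and 340.1 against 67 CPM. The sum of 8 eosinophil markers lay between 1150 and 1330 CPM in all WT and between 67 and 88.9 CPM in all 3xGrk-/- libraries. Of 12 neutrophil markers, 1 was called higher and 7 lower without LPS, and of the 11 tested with LPS 2 were higher and 7 lower. Their sum went the other way, from 849 to 895 CPM in WT to 1290 to 1320 CPM in 3xGrk-/- cells without LPS and from 380 to 436 CPM to 576 to 604 CPM with LPS. This rise rests largely on Mmp8, with a mean of 104.6 CPM in WT and 750.1 CPM in 3xGrk-/- cells without LPS and 25.27 against 364.7 CPM with LPS. Of the 6 tested mast cell and basophil markers 3 were lower in each stimulation, and 1 was higher without LPS. Since RNA was taken from whole cultures, fewer cells of a type and less RNA per cell cannot be told apart, and the part of these shifts in the results on the receptors was not tested.

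The first comparison asks how the loss of GRKs changed the receptors in unstimulated BMDCs. Sirpa and Pirb rose moderately, the DAP12-pairing receptors Trem1 and Cd300lb rose together with them, and the ITIM receptors Cd300a and Btla fell. Of the 8 members, 5 were higher and 2 lower in 3xGrk-/- cells by the quasi-likelihood test of edgeR, in which a gene was called where its p, adjusted by Benjamini-Hochberg over all tested genes, was below 0.05. Of all 12000 genes tested, 22.1% were called higher and 22.7% lower. The median log2 fold change of the 8 members was 0.52, whereas that of all genes was close to 0. Members and gene lists were chosen with earlier results of these data known, so such contrasts, here and below, do not test the group.

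Sirpa had 385 and 373 CPM in the WT and 627 and 635 CPM in the 3xGrk-/- libraries (log2 fold change 0.74, SE 0.0394, adjusted p = 1.33e-75 in edgeR). Pirb had 214 and 222 CPM in WT and 347 and 332 CPM in 3xGrk-/- cells (log2 fold change 0.64, SE 0.0452, adjusted p = 9.54e-44). In both, the libraries of a genotype lay within a few percent of each other and those of the other genotype well apart. Part of the exonic sequence of Pirb is shared with other genes of its cluster: 37.27% of its 50-base windows also occurred in another gene, mostly Gm14548, Pira2 and Gm15922, so that its reads may be split between copies. For Sirpa no window was shared. Cd300lf rose least, from 97.8 and 103.4 CPM to 134.3 and 132 CPM (log2 fold change 0.40, SE 0.0604, adjusted p = 2.54e-10).

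Btla showed the largest difference of the 8 members in unstimulated cells. It was counted 349 and 502 times in the WT and 77 and 50 times in the 3xGrk-/- libraries, or 66.7 and 70.4 CPM against 11.5 and 8.68 CPM. Its log2 fold change was −2.75 (SE 0.12, adjusted p = 2.44e-112 in edgeR). Cd300a was lower as well, with 50.6 and 46.0 CPM in WT and 19.2 and 18.1 CPM in 3xGrk-/- cells (log2 fold change −1.36, SE 0.115, adjusted p = 3.43e-31). In neither gene did the genotypes overlap. Btla and Cd300a fell in the same libraries in which 7 of the 8 eosinophil, 7 of the 12 tested DC, 7 of the 12 neutrophil and 3 of the 6 tested mast cell and basophil markers were called lower. Of these lists, 4 DC markers, 1 neutrophil marker and 1 mast cell and basophil marker were called higher. Of 13 macrophage and monocyte markers 8 were higher and 4 lower, and of all genes 22.1% were higher and 22.7% lower. The part of these shifts in the fall of both genes was not tested.

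The activating receptors rose. Cd300lb had 33.6 and 30.8 CPM in WT and 79.4 and 71.5 CPM in 3xGrk-/- cells (log2 fold change 1.24, SE 0.0899, adjusted p = 9.29e-42 in edgeR). Trem1, which amplifies inflammatory signals of Toll-like receptors, had 22.9 and 26.8 CPM in WT and 43.5 and 45.7 CPM in 3xGrk-/- cells (log2 fold change 0.83, SE 0.109, adjusted p = 3.14e-13). Each 3xGrk-/- library was above each WT library for both genes. Havcr2 was low in all 4 unstimulated libraries, with 24 and 37 counts in WT and 35 and 32 counts in 3xGrk-/- cells. These were 4.59 and 5.19 CPM against 5.24 and 5.56 CPM, which lay close without overlap, and the difference did not pass the test (log2 fold change 0.13, SE 0.257, adjusted p = 0.728). The locus row of Gm49339 had 376 and 373 CPM in WT and 612 and 619 CPM in 3xGrk-/- cells (log2 fold change 0.72, SE 0.0396, adjusted p = 3.39e-71).

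**Figure D1:**
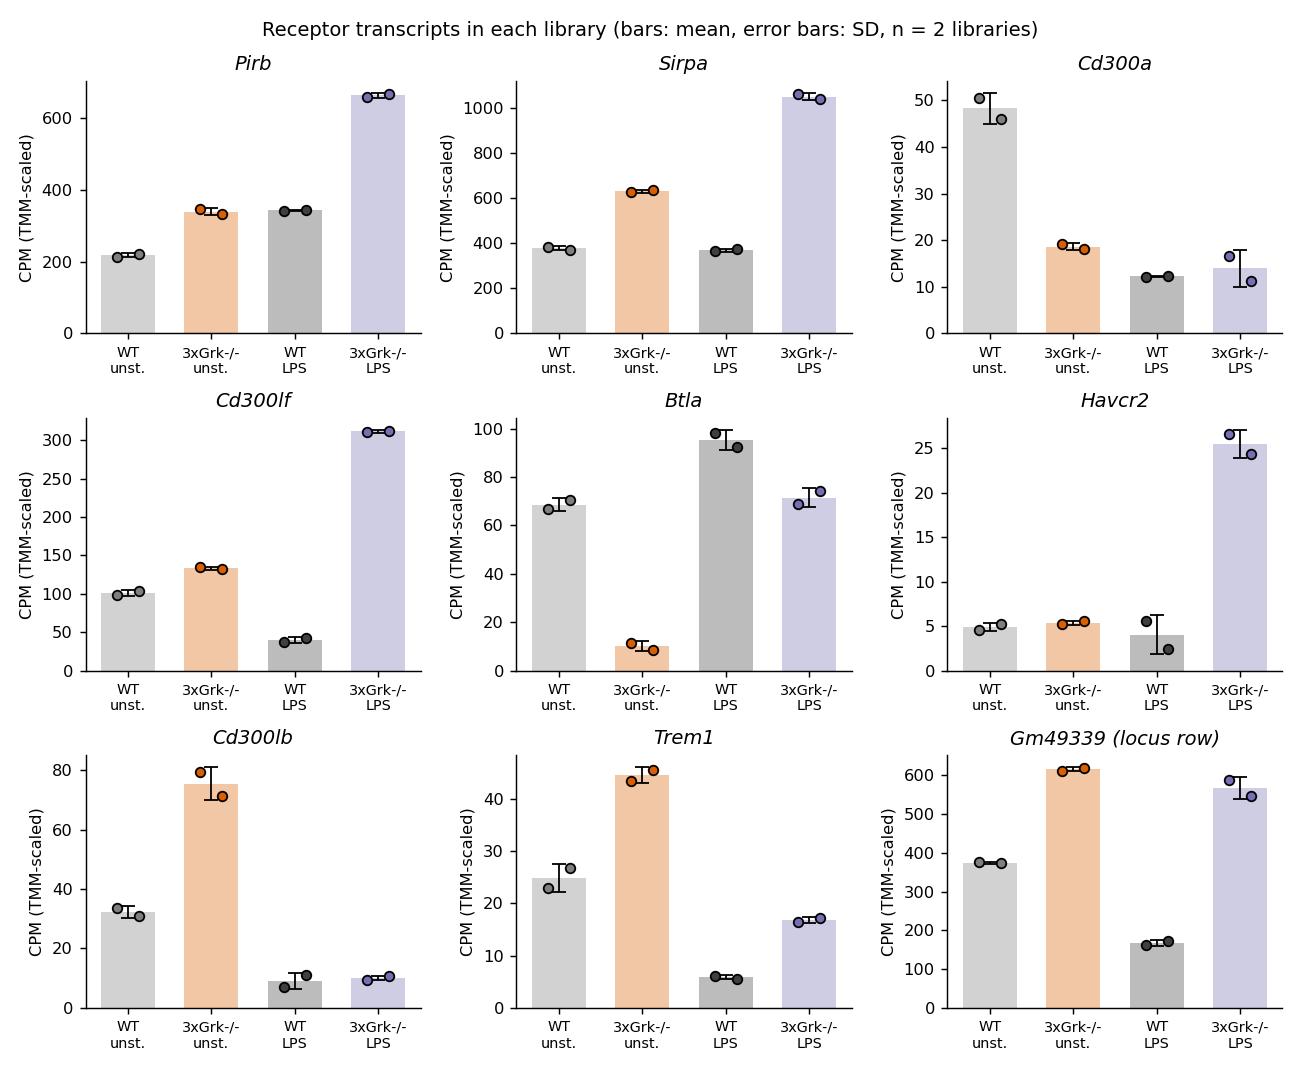
TMM-scaled CPM (y axis from 0) of the 8 members with a row and of the locus row Gm49339, in the 4 groups on the x axis. Points are the 2 libraries of a group, bars their mean and error bars the SD; Havcr2 stands out from the other groups in the LPS-stimulated 3xGrk-/- libraries, at 26.5 and 24.3 CPM, and Btla is low in the unstimulated 3xGrk-/- libraries.

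The second comparison asks the same of LPS-stimulated cells. With LPS, Cd300lf and Havcr2 were the members that differed most, Sirpa, Trem1 and Pirb were higher as well, Cd300a and Cd300lb did not differ detectably and Btla was slightly lower. Of the 8 members, 5 were called higher and 1 lower in 3xGrk-/- cells, where 24.7% of 11830 genes tested were called higher and 24% lower. The median log2 fold change of the members was 1.23, and that of all genes was again close to 0.

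Cd300lf, an inhibitory receptor of myeloid cells, had 36.6 and 42.5 CPM in LPS-stimulated WT and 310.3 and 312.4 CPM in LPS-stimulated 3xGrk-/- libraries. This was the largest difference among the members with LPS (2.97 on the log2 scale, SE 0.0802, adjusted p = 1.37e-17 in edgeR). The gene lies within Rab37 on the opposite strand, and whether the counting used strand is not stated. Rab37 itself had at most 25 counts in any library and moved the other way, with 14 and 21 counts in WT and 4 and 6 counts in 3xGrk-/- cells with LPS.

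Havcr2, known as Tim-3, an inhibitory receptor of exhausted T cells that dendritic cells and macrophages also carry, was counted 31 and 16 times in WT and 146 and 150 times in 3xGrk-/- cells with LPS. That is 5.62 and 2.48 CPM against 26.5 and 24.3 CPM (log2 fold change 2.68, SE 0.23, adjusted p = 3.33e-09 in edgeR). The 2 WT libraries lay farther apart than those of any other group, and the value was 3.36 without WT LPS replicate 1 and 2.18 without WT LPS replicate 2, with the call kept in both. Sirpa had 364.5 and 375 CPM in WT and 1063 and 1041 CPM in 3xGrk-/- cells (log2 fold change 1.51, SE 0.0571, adjusted p = 4.07e-15). Pirb had 342 and 343 CPM in WT and 659 and 668 CPM in 3xGrk-/- cells (log2 fold change 0.95, SE 0.0582, adjusted p = 1.31e-11). Thus both abundant inhibitory receptors were higher in all 3xGrk-/- libraries in both stimulations.

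Trem1 was counted 34 and 36 times in WT and 90 and 106 times in 3xGrk-/- cells with LPS (6.17 and 5.57 CPM against 16.4 and 17.2 CPM; log2 fold change 1.52, SE 0.196, adjusted p = 1.36e-06 in edgeR). Cd300lb, the other DAP12-pairing member, had 39 and 71 counts in WT and 52 and 65 counts in 3xGrk-/- cells, and the genotypes overlapped (log2 fold change 0.13, SE 0.221, adjusted p = 0.661). Cd300a overlapped too, with 67 and 80 counts in WT and 92 and 69 counts in 3xGrk-/- cells (log2 fold change 0.17, SE 0.194, adjusted p = 0.496). The sign of the last 2 values depended on single libraries: Cd300lb was at −0.12 without WT LPS replicate 1, and Cd300a at −0.12 without 3xGrk-/- LPS replicate 1. Btla had 98.2 and 92.5 CPM in WT and 68.7 and 74.3 CPM in 3xGrk-/- cells, a small difference without overlap (log2 fold change −0.41, SE 0.0852, adjusted p = 0.000383). The locus row Gm49339 had 161 and 173 CPM in WT and 587.5 and 547 CPM in 3xGrk-/- cells (log2 fold change 1.76, SE 0.0651, adjusted p = 2.63e-15).

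**Figure D2:**
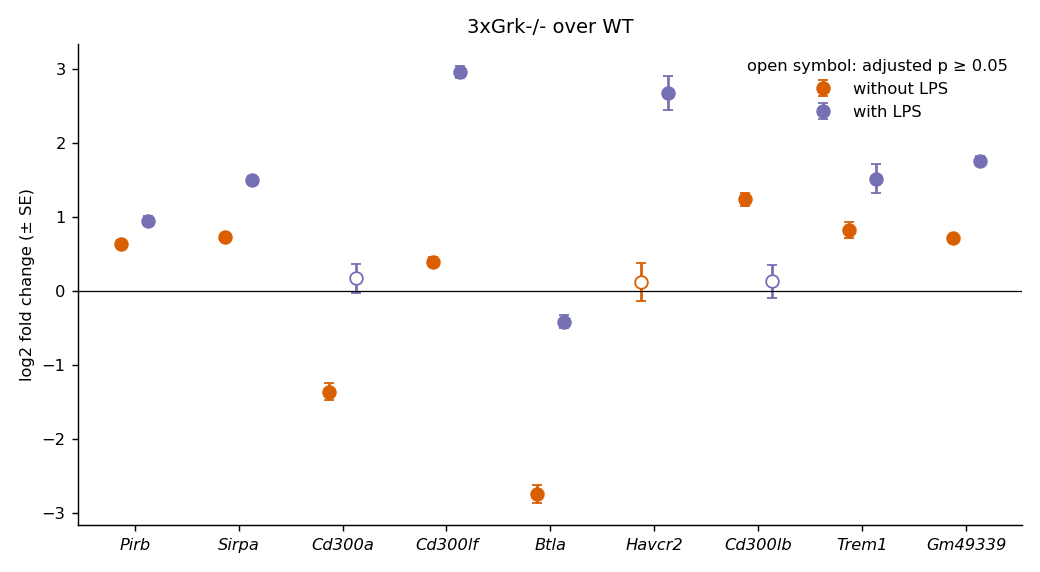
Log2 fold change of 3xGrk-/- over WT (y axis, ± SE) for each member and the locus row Gm49339 on the x axis, without LPS (orange) and with LPS (purple), from 2 libraries per group. Filled symbols passed an adjusted p of 0.05; Cd300lf goes from 0.40 to 2.97, Havcr2 from 0.13 to 2.68 and Btla from −2.75 to −0.41, while Cd300lb goes from 1.24 to 0.13.

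Whether the effect of the genotype depended on LPS was tested as an interaction in one fit of all 8 libraries. It did for each of the 8 members: the log2 fold change of 3xGrk-/- over WT was higher with LPS for 7 members and lower for 1, Cd300lb. Of 12541 genes tested, 16.5% had a higher and 16% a lower value with LPS at the same threshold. The difference was 2.57 (SE 0.0998, adjusted p = 1.11e-17 in edgeR) for Cd300lf, 2.56 (SE 0.368) for Havcr2, 2.34 (SE 0.151) for Btla and 1.54 (SE 0.22) for Cd300a, all on the log2 scale. For Btla and Cd300a the higher value stands for a deficit that was smaller with LPS, and for Cd300lf and Havcr2 for an excess that was larger. It was 0.77 for Sirpa and 0.31 for Pirb (adjusted p = 3.69e-10 and 0.00118), and −1.11 for Cd300lb (SE 0.232, adjusted p = 0.000389). Leaving out a library moved Havcr2 between 2.04 and 3.22, the highest value without WT LPS replicate 1, and Cd300lb between −1.37 without WT LPS replicate 1 and −0.74 without WT LPS replicate 2. For Trem1 the difference was 0.69 (SE 0.219, adjusted p = 0.0154), a call that was lost in DESeq2 (adjusted p = 0.168). It was also lost without WT unstimulated replicate 2 (adjusted p = 0.0812), without WT LPS replicate 2 (adjusted p = 0.0838) and without 3xGrk-/- LPS replicate 2 (adjusted p = 0.0566).

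The same libraries give the response to LPS within each genotype, across the 2 tables, 1 for each stimulation. Of the 8 members, 2 were higher and 4 lower after LPS in WT cells, where 29.5% of 12541 genes were called higher and 30.8% lower. In 3xGrk-/- cells 5 were higher and 3 lower, where 28% of the genes were called higher and 27.4% lower. The median response of the members was −0.83 on the log2 scale in WT and 0.85 in 3xGrk-/- cells. These responses share the unstimulated and LPS-stimulated libraries with the comparisons above and are the same counts read along the other axis.

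The members fell into patterns that can be read from the libraries given above. Pirb rose in both genotypes (0.65 in WT and 0.97 in 3xGrk-/- cells on the log2 scale, adjusted p = 1.39e-11 and 1e-15 in edgeR). Btla rose by 0.47 in WT cells, from a level that was already high, and by 2.81 in 3xGrk-/- cells, to a level that overlapped with that of unstimulated WT cells (68.7 and 74.3 against 66.7 and 70.4 CPM). Cd300lf changed in opposite directions, with −1.34 (SE 0.0796) in WT and 1.23 (SE 0.0606) in 3xGrk-/- cells, and was the one member called in opposite directions in the genotypes. Sirpa rose by 0.74 in 3xGrk-/- cells (SE 0.0468, adjusted p = 8.84e-14) and was not called in WT cells (−0.03, SE 0.0487, adjusted p = 0.558). Scaled by library size only, it was called lower in WT cells (−0.25), where the median of all genes then moved to −0.23. Havcr2 rose by 2.23 in 3xGrk-/- cells (SE 0.195), from 35 and 32 to 146 and 150 counts. In WT cells its value was −0.33 (SE 0.302, adjusted p = 0.362), and was −0.98 without WT LPS replicate 1, which passed the threshold (adjusted p = 0.019), and 0.19 without WT LPS replicate 2.

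Both DAP12-pairing receptors fell after LPS in both genotypes. The log2 fold change of Trem1 was −2.097 in WT (SE 0.167) and −1.41 in 3xGrk-/- cells (SE 0.119), and that of Cd300lb −1.80 (SE 0.158) and −2.91 (SE 0.134). The ITIM receptor Cd300a fell by 1.97 in WT cells (SE 0.138), to a level that overlapped with that of LPS-stimulated 3xGrk-/- cells. In 3xGrk-/- cells, where it was already low before stimulation, it fell by 0.43 (SE 0.162, adjusted p = 0.0252 in edgeR). This last call was lost in DESeq2 (adjusted p = 0.176), without 3xGrk-/- unstimulated replicate 1 (−0.38, adjusted p = 0.131) and without 3xGrk-/- LPS replicate 2 (−0.15, adjusted p = 0.516). The locus row Gm49339 fell by 1.16 in WT cells and was at −0.12 in 3xGrk-/- cells (adjusted p = 0.0543), a value that passed the threshold without 3xGrk-/- LPS replicate 1 (−0.17, adjusted p = 0.0383).

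**Figure D3:**
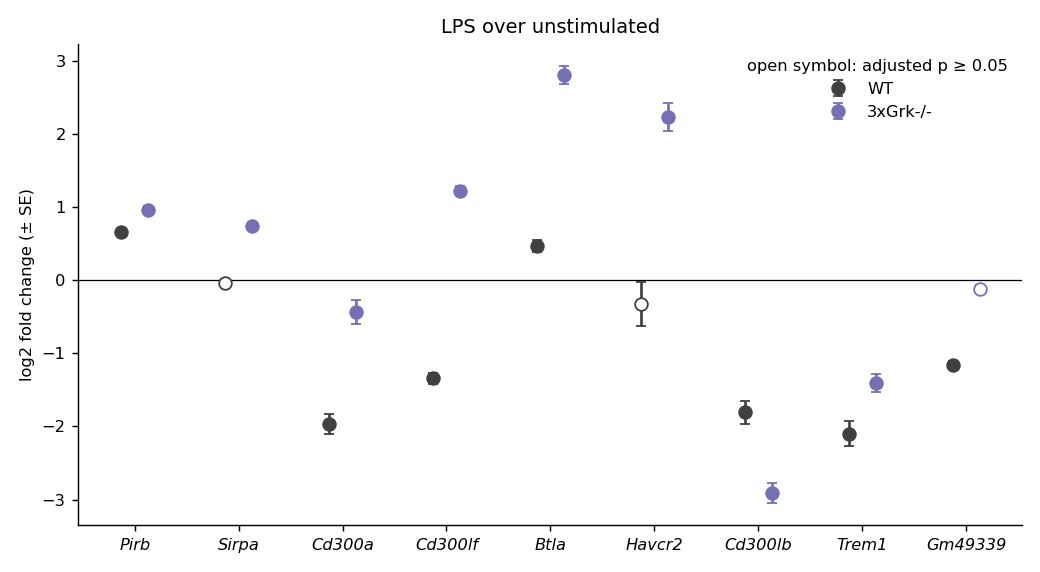
Log2 fold change of LPS over unstimulated (y axis, ± SE) for each member and the locus row Gm49339 on the x axis, in WT (dark) and 3xGrk-/- cells (purple), from 2 libraries per group. Filled symbols passed an adjusted p of 0.05; Cd300lf is at −1.34 in WT and 1.23 in 3xGrk-/- cells, and Trem1 and Cd300lb lie below 0 in both.

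Per kb of exon, the order of the members changed with genotype and LPS. In unstimulated WT cells Sirpa led with 77.2 ± 1.78 CPM per kb (SD, n = 2), followed by Pirb with 48.7 ± 1.28, Btla with 20.2 ± 0.766 and Cd300lf with 19.5 ± 0.771 CPM per kb. Cd300lb (11 ± 0.677), Cd300a (10.2 ± 0.695), Trem1 (8.29 ± 0.907) and Havcr2 (1.8 ± 0.156) followed. Btla and Cd300lf overlapped between their libraries, as did Cd300lb and Cd300a, and the other neighbours did not. In unstimulated 3xGrk-/- cells Btla dropped behind Cd300a, with 2.97 ± 0.59 CPM per kb, and Cd300lb and Cd300lf overlapped behind Pirb. In LPS-stimulated WT cells the lead was shared by Pirb with 76.6 ± 0.128 and Sirpa with 75.3 ± 1.51 CPM per kb, which lay close without overlap, and Cd300lb overlapped with Cd300a, and Trem1 with Havcr2, at the end. In LPS-stimulated 3xGrk-/- cells Sirpa (214 ± 3.19), Pirb (148 ± 1.4) and Cd300lf (60.5 ± 0.293) led, Havcr2 stood ahead of Trem1 with 9.35 ± 0.577 CPM per kb, and the last places were held by Cd300lb and Cd300a, which overlapped.

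Cd300a, Cd300lb and Cd300lf lie in a row of 11 Cd300 genes, which spans 244 kb on chromosome 11 (GRCm38). Of these, 4 (Cd300ld2, Cd300ld3, Cd300ld4 and Cd300ld5, between Cd300c2 and Cd300e) had at most 7 counts in any library, were in none of the gene lists and are not described further. In chromosomal order the other 7 are Cd300a on the plus strand, then Cd300lb, Cd300c, Cd300ld, Cd300c2, Cd300e and Cd300lf on the minus strand. Genes of this row are named as neighbours of the members, after their values were seen. In unstimulated cells 4 of the 7 were higher in 3xGrk-/- cells (Cd300lb, Cd300ld, Cd300c2 and Cd300lf) and 3 were lower (Cd300a, Cd300c and Cd300e), beside 22.1% and 22.7% of all genes. Cd300c was counted 59 and 75 times in WT and 5 and 3 times in 3xGrk-/- libraries (log2 fold change −4.03, adjusted p = 1.02e-29 in edgeR), and Cd300e 82 and 114 times against 6 and 3 times (log2 fold change −4.42, adjusted p = 1.07e-44). Cd300ld, which lies between Cd300c and Cd300e, went from 65 and 84 counts to 300 and 246 counts (log2 fold change 1.86).

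With LPS, Cd300c and Cd300e had at most 4 counts in any library of either genotype and were not tested between genotypes. Of the other 5, Cd300ld, Cd300c2 and Cd300lf were higher in 3xGrk-/- cells, and Cd300a and Cd300lb were not called. Cd300c2 had 13 and 14 counts in LPS-stimulated WT and 258 and 283 counts in LPS-stimulated 3xGrk-/- cells, and was higher by 4.35 on the log2 scale (SE 0.187, adjusted p = 3.43e-14). In WT cells all 7 described genes of the row fell after LPS, as did 30.8% of all genes. Cd300lf was the one of the 7 that rose after LPS in 3xGrk-/- cells, while 5 of the other 6 fell there, as did 27.4% of all genes, and Cd300e was not called. Cd300lf shares 6.043% of its 50-base windows with other genes, mostly Cd300ld, and Cd300a 3.275%, mostly with Cd300c2.

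**Figure D4:**
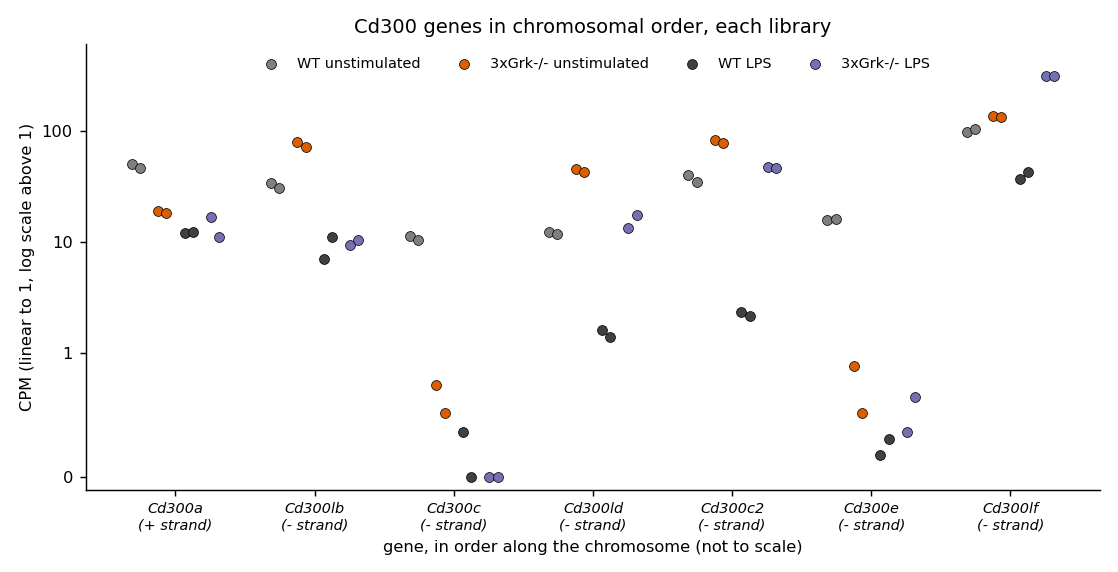
CPM of each library (points; y axis linear up to 1 and logarithmic above) for the 7 described Cd300 genes, in their order along the chromosome but not to scale, with the 4 groups in 4 colours. Cd300c and Cd300e are present in unstimulated WT libraries, at 10.5 to 16 CPM, and below 1 CPM in every other group, whereas Cd300lf is highest in LPS-stimulated 3xGrk-/- cells.

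The Pirb and Sirpa families each hold an inhibitory member and its activating relatives, which were named for that relation after their values were seen. Pira2, an activating relative of Pirb, rose more than Pirb in unstimulated 3xGrk-/- cells, from 58 and 84 to 257 and 238 counts (log2 fold change 1.79, SE 0.134). With LPS it had 254 and 313 counts in WT and 429 and 486 counts in 3xGrk-/- cells (log2 fold change 0.73, SE 0.0927). Pira2 and Pirb share sequence, so that their values are not independent. In contrast to Pirb, its interaction was negative (−1.07, SE 0.157, adjusted p = 3.63e-06 in edgeR). The genes Sirpb1a, Sirpb1b and Sirpb1c, activating relatives of Sirpa, were higher in 3xGrk-/- cells in both stimulations. Sirpb1c had 26 and 25 counts in WT and 151 and 124 counts in 3xGrk-/- cells without LPS, and 9 and 7 against 156 and 172 counts with LPS (log2 fold changes of 2.42 and 4.37, SE 0.194 and 0.242). Pirb and Pira2 thus moved in one direction between the genotypes, as did Sirpa and its listed Sirpb1 relatives. The other Pira genes of the list (Pira1, Pira5, Pira6, Pira7, Pira11, Pira12 and Pira13) had no row under these names.

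Further receptors of these families and of like function were taken from a list of 50 genes, 42 of which had a row in the tables. Without LPS, 22 of the 35 tested were higher and 10 lower in 3xGrk-/- cells (median log2 fold change 0.56). With LPS, 24 of the 32 tested were higher and 4 lower (median 1.60). Over all genes 22.1% were higher and 22.7% lower without LPS, and 24.7% and 24% with LPS. Beside Cd22, the highest were Trem2, a lipid receptor of macrophages that pairs with DAP12 (2.87 without and 4.58 with LPS), Sirpb1c without LPS, and Siglec1 with LPS. Siglec1, a sialic acid receptor of macrophages, went from 60 and 98 counts in WT to 1915 and 2069 counts in 3xGrk-/- cells with LPS, a log2 fold change of 4.70 (SE 0.102). Cd22, an inhibitory receptor best known from B cells, had 2 and 3 counts in unstimulated WT and 44 and 38 counts in unstimulated 3xGrk-/- libraries, a ratio of 16.3 with an exact 95% counting interval of 6.71 to 51.5. The sum of 5 B cell markers was 0.28 to 0.764 CPM in unstimulated WT and 0.15 to 0.521 CPM in these 3xGrk-/- libraries, where the B cell marker Cd79a had 0 counts. The source of the Cd22 counts was not tested. With LPS Cd22 had 1 and 0 counts in WT and 54 and 50 counts in 3xGrk-/- cells, a ratio of 107 with an interval of 18.7 to 4260. These intervals cover counting error only.

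Lower in unstimulated 3xGrk-/- cells were, beside Cd300e and Cd300c, above all Cd300lg, with 19 and 23 counts in WT and 4 and 2 counts in 3xGrk-/- libraries (log2 fold change −2.77, adjusted p = 2.28e-07 in edgeR). With LPS the lower genes were led by Cd72 (−1.90), Cd244a (−1.18) and Siglecg (−1.10). Cd72, an inhibitory receptor of antigen-presenting cells, rose from 56 and 85 to 509 and 630 counts after LPS in WT cells, but only from 34 and 34 to 136 and 162 counts in 3xGrk-/- cells. After LPS, 5 of 36 listed receptors tested were higher and 25 lower in WT cells, and 11 were higher and 12 lower in 3xGrk-/- cells. Over all genes 29.5% were higher and 30.8% lower in WT, and 28% and 27.4% in 3xGrk-/- cells, so that the counts in 3xGrk-/- cells are near those shares. In WT cells Cd72 (3.06), Siglec1 (2.75) and Pira2 (2.04) rose most, and Cd300lg fell by at least 13.6-fold, from 42 counts over both libraries to 0, with 3 counts over the group taken as the floor. The interaction was higher for 19 and lower for 4 of 36 receptors, beside 16.5% and 16% of all genes, and the count of lower receptors is near that share.

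**Figure D5:**
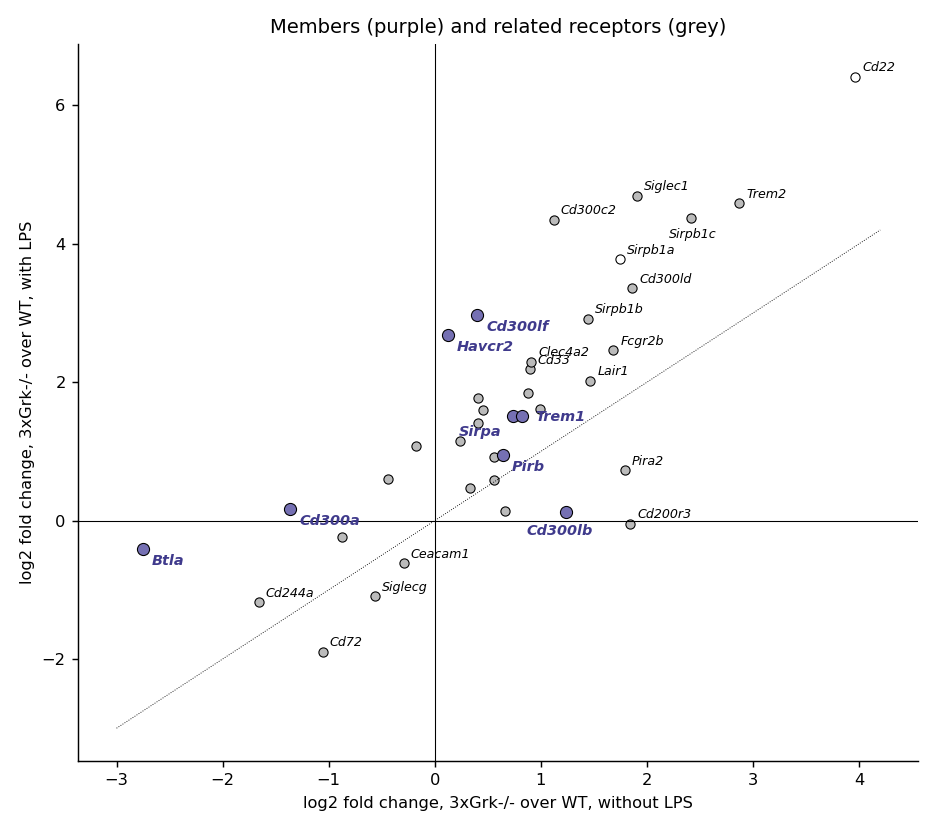
Log2 fold change of 3xGrk-/- over WT without LPS (x axis) against that with LPS (y axis) for the 8 members (purple) and for 31 related receptors tested in both (grey; open symbols, 2 genes with at most 3 counts in each library of a group). The dotted line marks equal values; 25 of the 31 lie above it, as do the members except Cd300lb and 49.3% of the 11350 genes tested in both, and being above it is not a call.

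Genes of the signalling proteins behind these receptors were taken as 2 lists, inhibitory and activating, which were not tested against each other. Of 10 genes listed for inhibitory signalling, 2 were higher and 5 lower in 3xGrk-/- cells in each stimulation, and the median log2 fold change was −0.18 without and −0.22 with LPS. The higher count is near the share of all genes, 22.1% without and 24.7% with LPS, and the lower count stands beside 22.7% and 24%. Socs3, a feedback inhibitor of cytokine signalling, was higher in both (0.86 and 1.02), and Dok3, an adaptor that binds SHIP-1, was lower without LPS (−0.39) and higher with LPS (0.95). Ptpn6, which encodes SHP-1, was lower with LPS, with 1475 counts against 2590 in WT over both libraries (log2 fold change −0.78, SE 0.0716, adjusted p = 9.78e-09 in edgeR). Without LPS its mean was lower too, at 208.4 CPM in 3xGrk-/- cells against 246.2 CPM in WT. Csk, a kinase that restrains Src kinases, was lower with LPS as well (−0.83, SE 0.0761).

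On the activating side, 9 of 14 genes were higher and 2 lower without LPS, and 11 higher and 1 lower with LPS, beside the same shares of all genes. Src (1.11 and 1.66) and Fcer1g, the Fc receptor gamma chain (0.78 and 1.93), were higher in both stimulations, and with LPS also Hcst, the adaptor DAP10 (1.67). Lyn (−0.34) and Card9 (−0.23) were lower without LPS, and Bcl10 (−0.27) with LPS. Tyrobp, the adaptor of Trem1 and Cd300lb, fell after LPS like both receptors, with a log2 fold change of −1.67 in WT (SE 0.0602) and −0.80 in 3xGrk-/- cells (SE 0.0547). For the Src-family kinase gene Fgr these were −3.29 and −2.94.

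Of 14 ligand genes, 13 were tested. Without LPS 7 were higher and 3 lower in 3xGrk-/- cells, and with LPS 7 were higher and 2 lower. Over all genes 22.1% were higher and 22.7% lower without LPS, the latter near the share of lower ligands, and 24.7% and 24% with LPS. Tnfrsf14, which encodes HVEM, the ligand of Btla, was higher with LPS, with 590 counts over both 3xGrk-/- libraries against 229 in WT (log2 fold change 1.40, SE 0.119, adjusted p = 3.08e-09 in edgeR). B2m, the light chain of the MHC class I ligands of Pirb, was higher with LPS by 0.90 (SE 0.045). Lgals9, which encodes galectin-9, a ligand of Havcr2, was higher without LPS (0.73, SE 0.0834) and with LPS (0.57, SE 0.0671), and rose by 1.86 after LPS in WT cells. Pglyrp1, which encodes a ligand of Trem1, was lower in both stimulations (−0.95 and −2.01), as was Hmgb1, another ligand of Havcr2, without LPS (−0.59). Thy1, also in the list, fell most with LPS, with 130 counts over both 3xGrk-/- libraries against 761 in WT (log2 fold change −2.51, SE 0.134). Angptl2, a ligand of Pirb, was higher in both (1.21 and 3.19), the latter on 10 counts over both WT libraries.

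The genes whose pattern over the 8 libraries was most like that of a member were sought among 9150 genes with a mean of at least 3 log2 CPM, by the root mean square difference of log2 CPM after each gene's mean was subtracted. Pirb was closest to Ier3 (0.0562) and Shisa5 (0.0769), and Sirpa to Naip2 (0.0776) and Dnase1l1 (0.0951). Cd300lf was closest to Lgals8 (0.13) and Grn (0.16), Trem1 to Plxdc2 (0.131) and Cdk18 (0.139), and Cd300a to Tacc3 (0.145) and Frmd4b (0.174). Cd300lb was less closely matched, by Tns1 (0.251) and Scd2 (0.269), and Btla least, by Grap (0.447) and Tex14 (0.584). Havcr2 was below the level needed for this comparison. The 8 libraries form 4 pairs, so that likeness rests mainly on 4 group levels.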

How the data were processed

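Counts of 8 libraries of BMDCs, 2 for each of the 4 groups, were analysed. The authors ran snakePipes, aligned the reads with STAR to mm10 and counted them on genes with featureCounts, and deposited the counts as whole numbers without normalization, in 2 tables, 1 for each stimulation. The annotation release and the strand setting are not given in the sources used here. Groups and replicate numbers came from the labels, and dose and times from the methods. Of 47937 gene IDs, 47224 were named with GENCODE M21 (GRCm38), and the unnamed IDs held 0.0847% of the counts.

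From the counts, the genotypes were compared within a table, and the interaction and the responses to LPS in a fit of all 8 libraries, with edgeR 4.0.16 in R 4.3.3 (TMM, filterByExpr, glmQLFit and glmQLFTest, Benjamini-Hochberg adjustment over all genes, adjusted p under 0.05). With 2 libraries against 2, an exact test on single genes cannot reach this threshold. The SE was derived from the test: the absolute log2 fold change before shrinkage was divided by the square root of the quasi-likelihood F statistic. Depth was 4713305 to 6933358 reads on genes (median 6228400). Levels are CPM after TMM scaling, and levels between genes are per kb of joined exons. Overlap between genes was read from 50-base windows of M21 transcripts. Promoters are RefSeq sequences.

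The members and the lists of genes and markers were chosen with earlier results of these data known. All members are named. The genes named from a list were mostly among the 3 called genes that changed most in either direction, besides relatives and neighbours of the members. Not all of those 3 are printed. Gene lists are described by counts and medians. For genes with at most 3 counts in each library of a group, a ratio with a 95% Clopper-Pearson interval is given, or, for a group at 0, a bound against 3 counts over the group. The alternatives were DESeq2 1.42.0, no filter, a minimum of 10 counts per library, a minimum log2 fold change of 1, library size only, RLE size factors, a biological coefficient of variation of 0.4, a replicate block, one fit of all libraries, and leaving out each library. The replicate numbers did not pair the samples. One of the marker genes is not reported here.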

Additional observations from a re-analysis of the deposited data

Results flagged for a closer look

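For the 8 members and the locus row Gm49339, the log2 fold change of 3xGrk-/- over WT was not the same with and without LPS, by the interaction term in edgeR after Benjamini-Hochberg adjustment. The difference of the log2 fold changes, with minus without LPS, was 2.57 for Cd300lf, 2.56 for Havcr2, 2.34 for Btla, 1.54 for Cd300a, 1.05 for Gm49339, 0.77 for Sirpa, 0.69 for Trem1, 0.31 for Pirb and −1.11 for Cd300lb. The spread of a group of 2 libraries allows no test for a library far from the others.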

How the results depend on the processing

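Over 40 values of the 8 members in 5 comparisons, the direction and the side of the threshold were the same for all with RLE size factors, without a filter, with at least 10 counts in every library and with the replicate block. The replicate numbers did not pair the samples (correlations of deviations between −0.0654 and 0.0718 over 9150 genes), and with the block 7, 6, 8, 6 and 8 members were called, as without it (without LPS, with LPS, interaction, LPS in WT, LPS in 3xGrk-/-). DESeq2 called 2831, 3663 and 2450 genes in the first 3, and changed 2 calls of members, Trem1 in the interaction and Cd300a in 3xGrk-/- cells. A log2 fold change of at least 1 left 1444, 1984, 1375, 2700 and 2373 genes, and 3 members without LPS, 5 in the interaction and 5 for LPS in 3xGrk-/- cells. The common biological coefficients of variation between libraries of a group were 0.0306, 0.0573 and 0.0463. With a coefficient of 0.4 in their place, 448, 782, 72, 1110 and 850 genes and 1, 2, 0, 3 and 3 members were called by edgeR's likelihood ratio test; in the interaction, 3 members had an unadjusted p under 0.05 there, and DESeq2 called 7. With library size only, the median response to LPS of all genes moved to −0.23 in WT and −0.226 in 3xGrk-/- cells. Of the genes called, 31.1% and 30.2% were then higher, instead of 49% and 50.5%, as were 35.8% instead of 49.3% without LPS. Sirpa was then called lower after LPS in WT (−0.25, a shift close to that of all genes) and Gm49339 in 3xGrk-/- cells (−0.34). Leaving out 1 library changed the sign of Cd300lb with LPS (−0.12 to 0.51), of Cd300a with LPS (−0.12 to 0.46) and of Havcr2 for LPS in WT (−0.98 to 0.19). The cause of these changes was not tested. Depth limits Havcr2, with 16 to 37 counts outside the LPS-stimulated 3xGrk-/- libraries.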
